A study of Drosophila melanogaster with 17 samples.

Results

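The genes described are the Drosophila melanogaster genes for subunits of respiratory complex I, taken as every gene whose current symbol starts with ND-. Of 40 such genes in the gene table, 31 had a probe set of their own on the array, out of 10845 genes that did. A probe set is a group of short probes read together as 1 value, and for a gene with several probe sets the one with the highest mean over all 17 arrays was used. Of the 9 genes not measured in this way, ND-13B appeared only on a probe set shared with CG33493, and ND-23, ND-24, ND-30, ND-49, ND-49L, ND-AGGG, ND-B15 and ND-MLRQ had none of their own here. The subunits encoded by mitochondrial DNA had none either, so the account concerns nuclear genes.

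Complex I takes electrons from NADH, passes them to ubiquinone and pumps protons across the inner mitochondrial membrane. Its peripheral arm, which stands in the matrix, holds the N module, where NADH is oxidised at a flavin, and the Q module, where ubiquinone is reduced. Its membrane arm has a proximal and a distal part and holds the proton pumps. The core subunits carry the flavin, the iron-sulphur clusters and the pumps and are shared with bacteria, whereas the accessory subunits surround the core and serve assembly and stability. Neurons draw much of their ATP from oxidative phosphorylation. The subunit genes measured here are nuclear genes, whichever arm their products join. The places of the accessory subunits given here are those of their mammalian counterparts.

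RNA came from mushroom body neurons, the intrinsic neurons of an insect brain centre for learning, whose larval gamma axons are pruned early in metamorphosis. All groups had the same genotype, a yw background with 1 copy of UAS-mCD8::GFP, a membrane-bound green fluorescent protein, and the driver OK107-GAL4, which was used to mark the neurons. There were 7 arrays of larvae in the third instar, staged at -18 h relative to puparium formation and before the late larval ecdysone pulse. Another 7 arrays came from white prepupae, the stage taken as 0 h, and 3 from animals aged to 5 h. Fluorescent cell bodies were cut from frozen sections by laser capture, about 100 to a capture with 40 captures pooled to a replicate, and about 22 ng of total RNA was amplified in 2 rounds. The labels name no treatment and no mutant group, cell bodies were captured without their axons, and the labels call the replicates biological. Values are log2 signals after robust multi-array averaging (RMA), so a difference of 1 is a 2-fold change, and a probe set's level can be compared between arrays but not with the level of another probe set.

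Markers of mushroom body neurons were present at all times: the list's 10 measured genes summed to between 2438 and 3278 linear signal units at -18 h, 2531 and 3413 at 0 h and 2473 and 3050 at 5 h, with the learning gene rut at a mean of 10.4 log2 at -18 h. Such sums rest on the brightest genes: the mean log2 over the 10 was 6.78, 6.52 and 6.30 at the 3 times. From -18 h to 0 h prt (-2.59), bol (-0.72) and chinmo (-0.49) fell and mamo rose (0.83), and from 0 h to 5 h prt (-1.73) and mamo (-0.54) fell and toy rose (0.82). Of the 3 measured general neuronal genes, elav and nSyb were dim, at means of 4.496 and 4.77 log2 at -18 h. The mean over the 3 was 5.06, 4.97 and 4.997 log2 at the 3 times, and 1 of them fell from -18 h to 0 h. Among markers of other tissues, 8 muscle genes summed to between 237 and 2834 at -18 h against 279 to 329 at 0 h, with larval arrays 6 and 7 high. Of these muscle genes 3 fell and 2 rose in that step. The 6 salivary glue genes summed to between 130 and 20903 at -18 h against 108 to 133 at 0 h, with larval arrays 1, 4 and 6 high, and 2 of them fell. The 4 fat body genes ranged from 309 to 2451, from 163 to 707 and from 491 to 1813 at the 3 times. Their mean log2 was 7.51, 6.53 and 7.57, so it went down and then up. Between -18 h and 0 h 2 of them fell, and none passed from 0 h to 5 h. Of 7 glial genes 1, repo, rose and 2 fell between -18 h and 0 h. In the same step the 6 neuroblast and cell cycle genes went from sums of 292 to 413 to sums of 188 to 293, with mira and PCNA lower. The 6 hemocyte and basement membrane genes went from 97.8 to 151 to 146 to 218, with Pxn and crq higher and Hml and Col4a1 lower. The part of these shifts in the complex I changes was not tested. Hybridisation spike-in controls split the arrays into a higher set of 4 larval and 3 prepupal arrays and a lower set of the others, which held all 5 h arrays. The plot of arrays and tissue markers sets these signals beside complex I, whose mean over the 26 genes that are not paralogs lay between 7.22 and 7.52 log2 at -18 h, between 6.54 and 6.75 at 0 h and between 6.91 and 7.08 at 5 h.

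**Figure D1:**
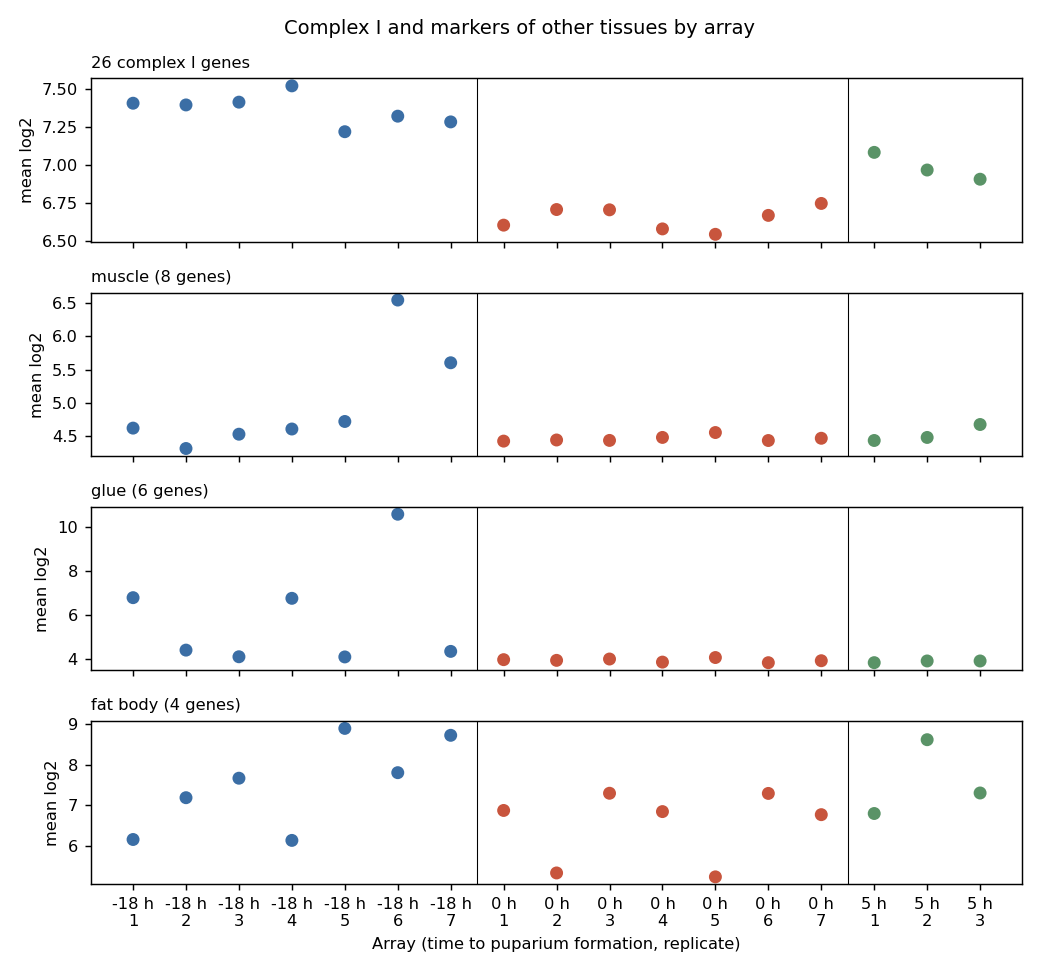
Each point is 1 array, grouped by time to puparium formation, and the y axes give the mean log2 RMA value of 26 complex I genes, 8 muscle genes, 6 salivary glue genes and 4 fat body genes. The complex I means of the 3 times do not overlap, while muscle signal stands out in larval arrays 6 and 7 and glue signal in larval arrays 1, 4 and 6.

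The comparison of 0 h with -18 h asks how complex I transcripts differed between the larva before the ecdysone pulse and the white prepupa. Of the 31 genes, 20 fell, none rose and 11 did not pass, at a Benjamini-Hochberg adjusted p of 0.05 in limma over all 13966 probe sets. Over all of those probe sets 11.9% fell and 13.6% rose, and of the 5085 that averaged 5 log2 or more, where 25 of the complex I genes lay, 20.7% fell. For 19 of the 31 genes every 0 h array lay below every -18 h array, against 5.25% of all probe sets. The median change was -0.63 log2 for the complex I genes and -0.02 for all probe sets. The falls ran from 1.24-fold to 5.18-fold with a median of 1.73-fold, and 4 genes fell by at least 2-fold. In pooled captures fewer cells of a type and less RNA per cell cannot be told apart.

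The falls were also measured without the larval arrays that carried muscle or glue signal and within each spike-in set. Without all larval arrays that carried either, which left larval arrays 2, 3 and 5, 19 genes fell and the median change was -0.61. Fat body signal was not used to drop arrays, and larval array 5 had the highest fat body mean, 8.89 log2. Within the higher spike-in set 18 genes fell with a median of -0.57, and within the lower set 18 fell with a median of -0.64.

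**Figure D2:**
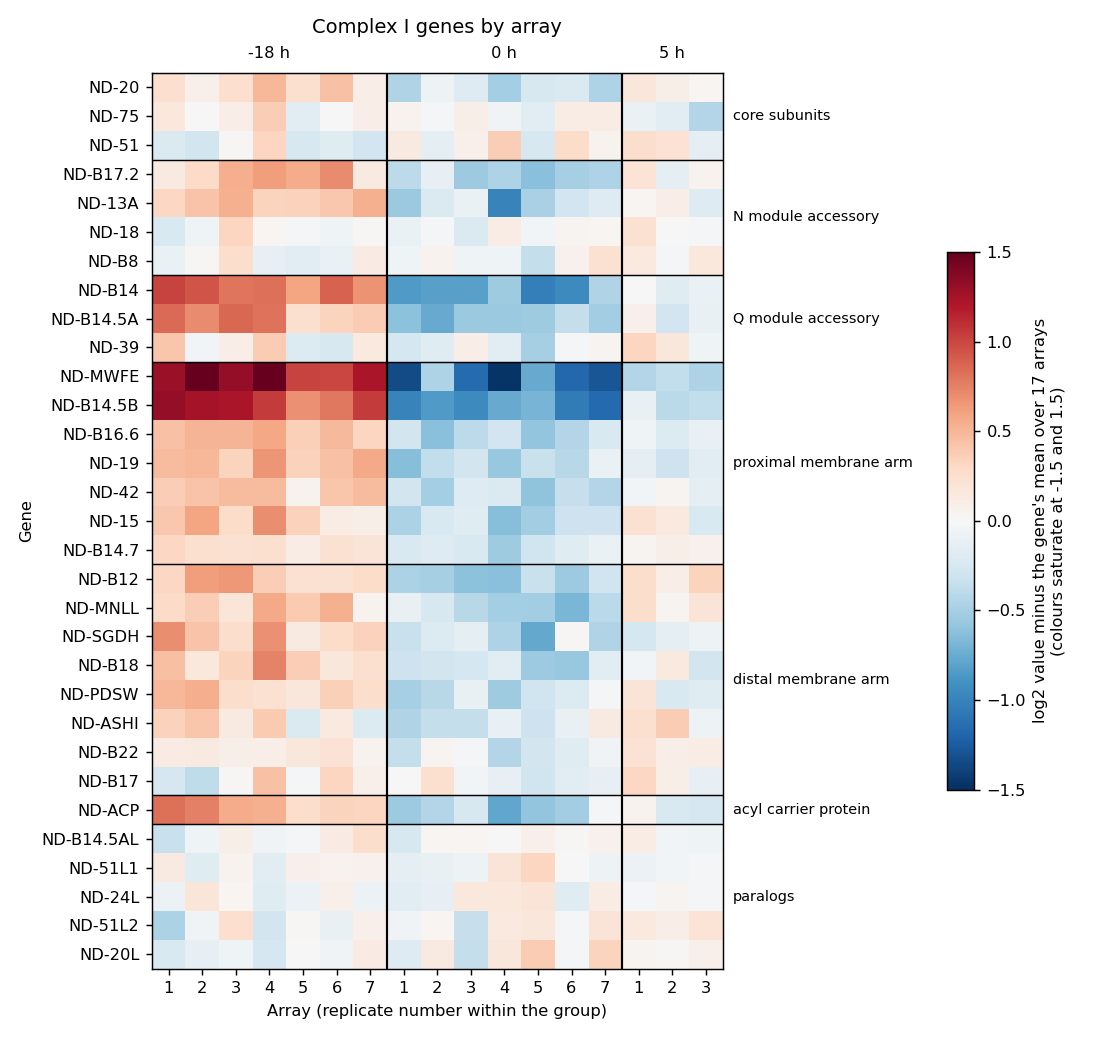
Rows are the 31 complex I genes by role and columns the 17 arrays by time, with colour giving the log2 value minus the gene's mean over all arrays, saturated at -1.5 and 1.5. The membrane arm genes are mostly red at -18 h, blue at 0 h and pale at 5 h, with ND-MWFE and ND-B14.5B the deepest in colour, while the paralogs at the bottom show no such step.

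Of the 7 nuclear core subunits only 3 were measured, and 1 of them fell. ND-20, the counterpart of the subunit that binds the last iron-sulphur cluster before ubiquinone, had values from 7.89 to 8.31 at -18 h with a median of 8.06, and from 7.30 to 7.73 at 0 h with a median of 7.56. No 0 h array reached the lowest larval one. ND-20 fell 1.49-fold (log2 change -0.57, SE 0.08, limma adjusted p = 1.39e-05).

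ND-75, whose mammalian counterpart is the largest subunit and carries several iron-sulphur clusters, read 6.78 to 7.33 at -18 h with a median of 7.05 and 6.79 to 7.07 at 0 h with a median of 7.004. ND-51, the flavin-bearing subunit that NADH meets first, read 7.11 to 7.73 with a median of 7.18 and then 7.16 to 7.77 with a median of 7.48. In both genes the ranges of the 2 groups overlapped over most of their length, although the ND-51 median was higher at 0 h. The log2 change was -0.06 for ND-75 (SE 0.08, limma adjusted p = 0.662) and 0.19 for ND-51 (SE 0.11, limma adjusted p = 0.22). Larval array 4 held the highest ND-51 value of its group, and without it ND-51 passed as higher at 0 h (0.27, limma adjusted p = 0.047).

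The core subunits were also compared pair by pair within each array, as was each measured gene that shares a name stem with a paralog. These 7 pairs were set up after the values had been seen, and p-values were adjusted over 14 tests, the 7 pairs in each of the successive steps. From -18 h to 0 h the change of ND-20 lay below that of ND-51 by 0.77 log2 (SE 0.14, two-sided exact permutation test, adjusted p = 0.00272) and below that of ND-75 by 0.51 (SE 0.10, exact adjusted p = 0.00272). Both tests reached 0.000583, the smallest unadjusted p that 7 arrays against 7 allow. The changes of ND-51 and ND-75 differed by 0.25 (SE 0.09, exact adjusted p = 0.028), in a pair of groups that overlapped.

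Among the N module accessory subunits 2 of 4 fell. ND-B17.2, an accessory subunit known in mammals for an assembly factor that resembles it, read 7.49 to 8.07 at -18 h with a median of 7.90 and 6.73 to 7.24 at 0 h with a median of 6.90. It fell 1.83-fold (-0.87, SE 0.10, limma adjusted p = 8.32e-07), with no overlap between the groups. ND-13A, whose mammalian counterpart binds zinc, fell 1.76-fold (-0.82, SE 0.11, limma adjusted p = 5.02e-06), also with no overlap. ND-18 and ND-B8 changed by -0.03 and -0.02 and were dim, with means of 3.72 and 3.20 log2 at -18 h. The 8 probe sets of mouse and yeast genes, which have no target in a fly, had means between 2.64 and 3.46 log2, so ND-B8 lay within that range and a change in either gene was hardly measurable.

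Among the Q module accessory subunits 2 of 3 fell, both by more than 2-fold. ND-B14, a small subunit of the LYR protein family that in mammals binds the mitochondrial acyl carrier protein, read 7.32 to 7.74 at -18 h with a median of 7.56 and 5.70 to 6.28 at 0 h with a median of 5.91. The lowest larval array stood more than 1 log2 unit above the highest prepupal one. ND-B14 fell 3.03-fold (-1.60, SE 0.09, limma adjusted p = 2.12e-11).

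ND-B14.5A read 7.75 to 8.37 with a median of 8.21 and then 6.75 to 7.15 with a median of 6.95, again with no overlap. It fell 2.23-fold (-1.15, SE 0.10, limma adjusted p = 2.08e-08). ND-39, the member that resembles short-chain dehydrogenases and binds NADPH in other species, changed by -0.22 (SE 0.11, limma adjusted p = 0.169) and passed only after quantile normalisation (-0.29, limma adjusted p = 0.0309). The probe set that ND-13B shares with CG33493 fell (-0.47, SE 0.08, limma adjusted p = 0.000106), and its signal cannot be assigned to either gene.

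All 7 proximal membrane arm genes that were measured fell, and for each of them no 0 h array reached a larval one. ND-MWFE, a single-pass membrane subunit whose mammalian counterpart is needed to assemble the enzyme, read 8.93 to 9.51 at -18 h with a median of 9.22. At 0 h it read 6.45 to 7.46 with a median of 6.75, the widest spread at that time among the genes of this arm. Larval arrays averaged 9.20 ± 0.222 and prepupal arrays 6.83 ± 0.356 log2 (SD, n = 7 each). This fall of 5.18-fold (-2.37, SE 0.13, limma adjusted p = 1.54e-11) was the largest among the 31 genes, and it came to -2.41 among arrays of the higher spike-in set and -2.31 among those of the lower.

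ND-B14.5B, another small membrane subunit, read 8.77 to 9.41 at -18 h with a median of 9.14 and 6.91 to 7.39 at 0 h with a median of 7.13. More than 1 log2 unit separated the 2 groups. Larval arrays averaged 9.14 ± 0.239 and prepupal arrays 7.16 ± 0.168 log2 (SD, n = 7 each), a change of -1.98 (SE 0.10, limma adjusted p = 4.23e-12).

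The other 5 proximal genes fell less, between 1.39-fold and 1.82-fold. They are ND-B16.6, whose mammalian counterpart is also known as GRIM-19 (-0.87, SE 0.07), ND-19 (-0.86, SE 0.08), ND-42, a member related to nucleoside kinases (-0.75, SE 0.08), ND-15 (-0.74, SE 0.10) and ND-B14.7, which resembles the Tim17 family of import proteins (-0.47, SE 0.07). Their limma adjusted p-values lay between 8.76e-09 for ND-B16.6 and 1.01e-05 for ND-15.

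In the distal membrane arm 7 of 8 measured genes fell. ND-B12, a small membrane subunit, read 6.503 to 6.93 at -18 h with a median of 6.59 and 5.66 to 5.98 at 0 h with a median of 5.78, with no overlap. It fell 1.82-fold (-0.87, SE 0.08, limma adjusted p = 5.29e-08). ND-SGDH (-0.74), ND-B18 (-0.68), which carries cysteine motifs of the intermembrane space, and ND-PDSW (-0.63) fell with no overlap between the groups.

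ND-MNLL was the only gene of the 31 with 2 probe sets of its own, and both fell at 0 h, by 0.76 and 0.73 on the log2 scale. The smallest falls were those of ND-ASHI (-0.36, SE 0.12, limma adjusted p = 0.0234), whose groups overlapped, and ND-B22, a member of the LYR family (-0.31, SE 0.07, limma adjusted p = 0.00301). The ND-ASHI call was lost without larval array 1 (0.0503), larval array 2 (0.0581) or 0 h array 1 (0.0568), over limma adjusted p-values up to 0.329 in 29 alternatives. Within the higher and lower spike-in sets neither call passed, with limma adjusted p-values of 0.138 and 0.0556 for ND-B22. ND-B17 did not pass (-0.10, SE 0.12, limma adjusted p = 0.583). NP15.6, a further subunit of this arm under another symbol, is no member by the rule and fell 1.31-fold (-0.39, SE 0.08, limma adjusted p = 0.001).

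ND-ACP, the mitochondrial acyl carrier protein, serves both complex I and fatty acid synthesis and in other species occurs in both arms. It read 7.57 to 8.13 at -18 h with a median of 7.83 and 6.53 to 7.27 at 0 h with a median of 6.78, with no overlap. The fall was 1.95-fold (-0.96, SE 0.11, limma adjusted p = 7.43e-07).

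Counted by arm, 14 of 15 measured membrane arm genes fell, while of the core, N module and Q module genes 1 of 3, 2 of 4 and 2 of 3 did. The difference between arms was not tested, and some of the genes that did not pass in the peripheral arm were dim.

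**Figure D3:**
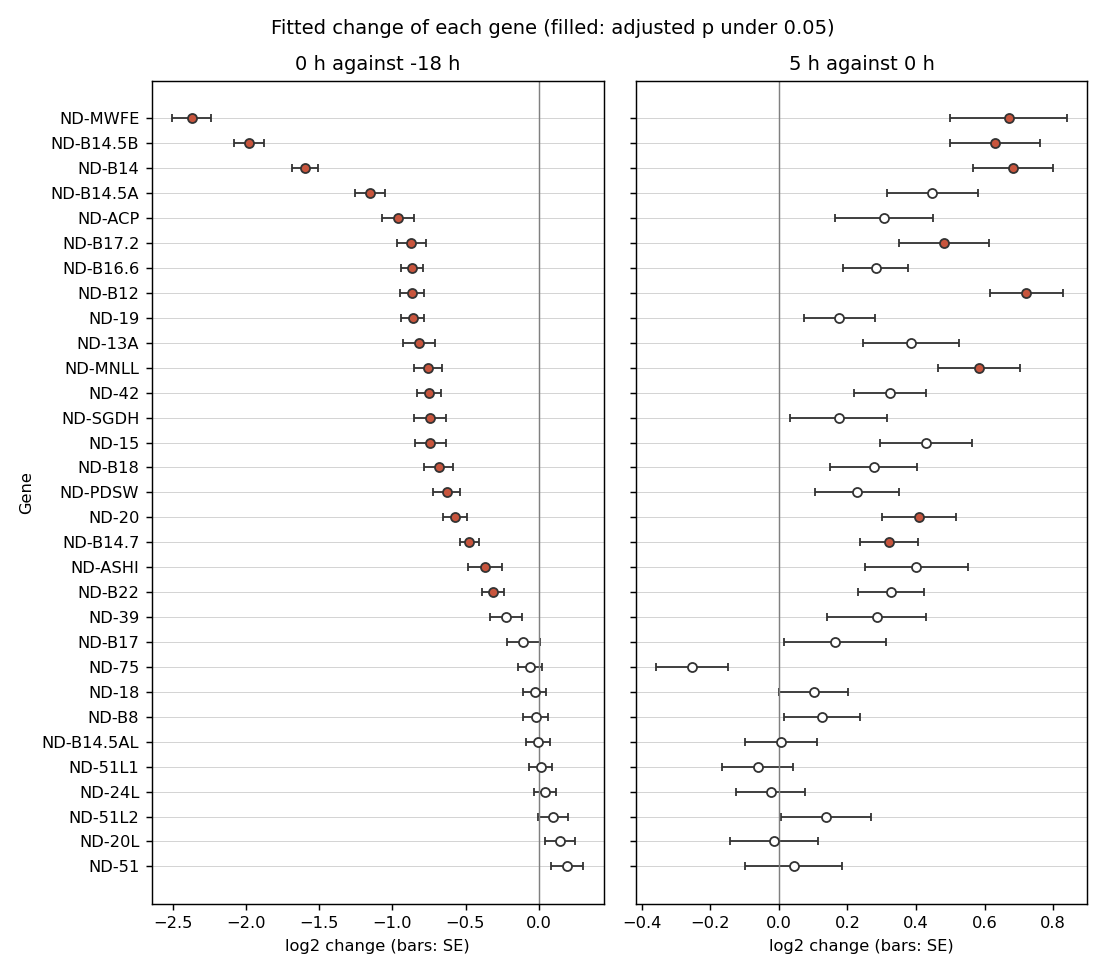
Points are the fitted log2 change of each of the 31 genes, bars its SE, and filled points have a limma adjusted p under 0.05, with 0 h against -18 h on the left and 5 h against 0 h on the right on a scale of its own. The left panel runs from -2.37 for ND-MWFE to 0.19 for ND-51, and on the right the filled points lie between 0.32 and 0.72.

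The 5 measured paralogs, whose symbols add an L to that of a subunit, did not pass in any comparison. ND-B14.5AL read 5.57 to 6.17 at -18 h with a median of 5.90 and 5.67 to 5.99 at 0 h with a median of 5.94. ND-20L read 4.38 to 4.76 and then 4.28 to 5.01, with medians of 4.58 and 4.77. In both genes the groups overlapped, the 0 h range being the narrower in ND-B14.5AL and the wider in ND-20L, with log2 changes of -0.004 and 0.15.

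ND-51L1 read 4.18 to 4.49 and then 4.22 to 4.68, ND-24L 4.10 to 4.47 and then 4.11 to 4.48, and ND-51L2 3.31 to 4.03 and then 3.43 to 3.98. Their changes were 0.01, 0.04 and 0.10, and the ranges overlapped. All paralogs but ND-B14.5AL averaged under 5 log2 over the 17 arrays (ND-20L at 4.64, ND-51L1 at 4.36, ND-24L at 4.29 and ND-51L2 at 3.78), so that a change in them may have been hard to measure. From 0 h to 5 h the changes of the 5 paralogs lay between -0.06 and 0.14.

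Within arrays, the change of ND-B14.5A from -18 h to 0 h lay below that of its paralog ND-B14.5AL by 1.15 log2 (SE 0.16, exact permutation test, adjusted p = 0.00272), with no overlap. The change of ND-20 lay below that of the dim ND-20L by 0.72 (SE 0.16, exact adjusted p = 0.00408), a difference that does not show that ND-20L transcripts held their level. The changes of ND-51 and of its paralogs ND-51L1 and ND-51L2 differed by 0.18 (SE 0.16, exact adjusted p = 0.348) and 0.10 (SE 0.17, exact adjusted p = 0.664), which does not show that they move alike.

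The comparison of 5 h with 0 h asks how these transcripts moved in the first hours after puparium formation, as pruning begins. Of the 31 genes 8 rose and none fell, where 2.36% of all probe sets rose and 1.42% fell. Of the probe sets that averaged 5 log2 or more, 5.03% rose, and of the 433 genes that averaged 7 log2 or more and span at most 2000 bases 77 rose. In 11 genes every 5 h array lay above every 0 h array, against 4.05% of all probe sets, and the median change was 0.28 log2 against -0.04. With 3 arrays at 5 h the count depended on single arrays: it was 2 without 5 h array 1, 4 without 5 h array 2, 4 without 5 h array 3, 4 without 0 h array 1 and 5 without 0 h array 4.

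ND-B12 read 6.55, 6.38 and 6.62 in the 3 arrays at 5 h, all above the highest 0 h array at 5.98. It rose 1.65-fold (log2 change 0.72, SE 0.11, limma adjusted p = 0.000237), the largest rise among these genes. ND-B14 read 6.73, 6.54 and 6.63 against a highest 0 h value of 6.28 and rose 1.60-fold (0.68, SE 0.12, limma adjusted p = 0.00114). These were the only 2 rises that passed in every alternative run.

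ND-MWFE read 7.48, 7.55 and 7.47, just above its highest 0 h array at 7.46. Its rise was 1.59-fold (0.67, SE 0.17, limma adjusted p = 0.0283), and it did not pass without any 1 of the 3 arrays at 5 h (limma adjusted p = 0.0959, 0.134 and 0.0984 without arrays 1, 2 and 3) or without 0 h array 1, 4 or 6 (0.0532, 0.0525 and 0.0501). Over 28 alternatives its largest limma adjusted p was 0.134.

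ND-B14.5B read 7.97, 7.68 and 7.72 against a highest 0 h value of 7.39, with 5 h array 1 the highest of the 3. It rose 1.55-fold (0.63, SE 0.13, limma adjusted p = 0.00663), which did not pass without 5 h array 1 (0.0718). ND-MNLL read 8.12, 7.90 and 8.06 against at most 7.74 at 0 h and rose by 0.58 log2 (SE 0.12, limma adjusted p = 0.00586), which did not pass without 5 h array 1 (0.0519). Its other probe set changed by 0.32 and did not pass (limma adjusted p = 0.0527).

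ND-B17.2 read 7.56, 7.22 and 7.41, and its lowest 5 h array lay within the 0 h range. It rose 1.40-fold (0.48, SE 0.13, limma adjusted p = 0.0425). ND-20 at 7.98, 7.90 and 7.84 and ND-B14.7 at 6.996, 7.04 and 7.02 stood above all their 0 h arrays and rose 1.33-fold and 1.25-fold (limma adjusted p = 0.0338 and 0.0366). None of these 3 rises passed without any 1 of the 5 h arrays. The ND-20 rise did not pass without 0 h array 1, 4 or 7 either, that of ND-B14.7 without 0 h array 1 or 5, and that of ND-B17.2 without larval array 3 or 0 h array 1, 3, 4, 5, 6 or 7. Over 28 alternatives their largest limma adjusted p was 0.247 for ND-B17.2, 0.166 for ND-20 and 0.171 for ND-B14.7.

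The 20 genes that fell at 0 h all had a higher mean at 5 h than at 0 h. In 18 of them the 5 h mean lay between the other means, and in ND-B22 and ND-ASHI it lay above the larval one. As a share of the fall, the mean at 5 h had come back by 20.5% for ND-19 to 110% for ND-ASHI, with a median of 42.9%. ND-MWFE and ND-B14.5B had regained 28.2% and 31.8%, and ND-MNLL and ND-B12 77.0% and 83.2%. The ND-MNLL share is that of its probe set with the higher mean. Its other probe set changed by -0.73 from -18 h to 0 h and by 0.32 from 0 h to 5 h, a smaller return. The fall and the gain share the 0 h arrays, so the 20 genes were picked by values that also enter the gain. The count of higher means and these shares are therefore a description. From 0 h to 5 h the mean was lower in 1 of the 26 complex I genes that are not paralogs and in 8684 of all 13966 probe sets. It was lower in 105 of the 433 genes that averaged 7 log2 or more and span at most 2000 bases.

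**Figure D4:**
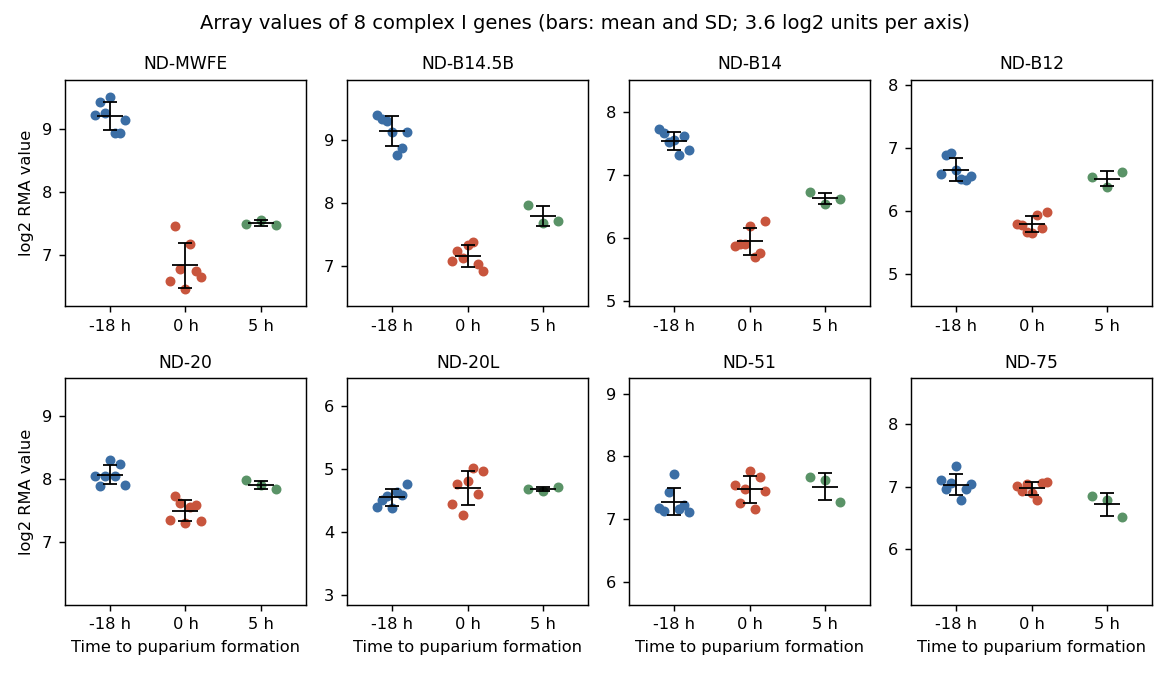
Points are the log2 RMA values of 8 complex I genes on each array at -18 h (n = 7), 0 h (n = 7) and 5 h (n = 3), with bars for the mean and SD and an equal span on every axis. ND-MWFE, ND-B14.5B and ND-B14 drop at 0 h and come back in part, ND-B12 and ND-20 return nearly to the larval level, and ND-20L, ND-51 and ND-75 overlap between -18 h and 0 h.

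ND-75 and ND-51 did not rise between 0 h and 5 h. ND-75 read 6.85, 6.79 and 6.52 at 5 h and changed by -0.25 (SE 0.10, limma adjusted p = 0.249), and ND-51 read 7.67, 7.63 and 7.27 and changed by 0.04 (SE 0.14, limma adjusted p = 0.94). Both overlapped their 0 h ranges. Within arrays the change of ND-20 exceeded that of ND-75 by 0.66 (SE 0.10, exact permutation test, adjusted p = 0.0194) and that of ND-51 by 0.37 (SE 0.16, exact adjusted p = 0.175). The change of ND-B14.5A exceeded that of ND-B14.5AL by 0.44 (SE 0.09, exact adjusted p = 0.0194), where the smallest unadjusted p that 3 arrays against 7 allow is 0.00833.

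The comparison of 5 h with -18 h, which shares its arrays with the other comparisons, asks which genes had not regained the larval level. Of the 31 genes 14 were lower at 5 h, none was higher and 17 did not pass, where 9.06% of all probe sets were lower and 11.0% higher. In 12 genes no 5 h array reached the larval range, against 10.3% of all probe sets, and the median change was -0.17 against -0.07. The count was 9 without 5 h array 3 and 8 without the larval arrays with muscle or glue signal.

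ND-MWFE remained 3.26-fold lower than in the larva (-1.70, SE 0.17, limma adjusted p = 2.09e-07), ND-B14.5B 2.55-fold lower (-1.35, SE 0.13, 1.5e-07) and ND-B14 1.89-fold lower (-0.92, SE 0.12, 6.2e-06). ND-B14.5A read 7.58, 7.22 and 7.39 at 5 h (-0.71), ND-19 6.76, 6.59 and 6.745 (-0.69) and ND-ACP 7.35, 7.08 and 7.05 (-0.66). In each of these genes all 5 h arrays lay below all larval ones. These 6 genes and ND-B16.6 (-0.58) passed in every alternative run. Of the other calls, that of ND-13A was lost without larval array 2, 3 or 7 or any 1 of the 5 h arrays, that of ND-B17.2 without larval array 3, 4, 5 or 6 or 5 h array 2 or 3, that of ND-B18 without 5 h array 1 or 3, and that of ND-PDSW without 5 h array 2 or 3. The 3 genes ND-B12, ND-MNLL and ND-20, with changes of -0.15, -0.17 and -0.16, did not pass. The other ND-MNLL probe set was lower at 5 h than in the larva (-0.41, limma adjusted p = 0.0022), so the 2 probe sets of that gene gave different calls.

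ND-75 was lower in this comparison only (-0.31, SE 0.10, limma adjusted p = 0.039). With 5 h array 3 left out, the array with its lowest value, the change was -0.21 (limma adjusted p = 0.264), and the call was lost in 14 of 28 alternatives, among them those without larval array 1, 3, 4 or 7 or 5 h array 2.

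Put together, 4 genes (ND-B14, ND-B14.5B, ND-B17.2 and ND-MWFE) fell, rose and were still lower at 5 h than in the larva. A further 4 (ND-20, ND-B12, ND-B14.7 and ND-MNLL) fell, rose and did not pass against the larva. For ND-MNLL this holds only for the probe set with the higher mean. Its other probe set fell, did not pass from 0 h to 5 h and was lower at 5 h than in the larva. Another 9 fell and were still lower at 5 h with no rise that passed, 3 (ND-15, ND-ASHI and ND-B22) fell and passed in neither later comparison, and 10 passed in none. A limma F test over the 3 times called 20 of the 31 genes, against 27.1% of all probe sets.

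Genes of the other respiratory complexes gave counts of the same kind. From -18 h to 0 h all 6 measured complex III genes fell with a median change of -1.26, among them UQCR-6.4 (-2.67, SE 0.12), ox (-2.08, SE 0.08) and UQCR-Q (-1.44, SE 0.07). With paralogs, the genes whose symbols end in L, left out of every complex, 8 of 9 complex IV genes fell, 10 of 11 ATP synthase genes and 2 of 3 complex II genes. Their medians were -1.20, -0.63 and -0.37, beside -0.74 over the 26 complex I genes that are not paralogs. No gene of these complexes rose, and none of their paralogs passed, 3 in complex IV, 4 in ATP synthase and 2 in complex II.

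From 0 h to 5 h, 3 of 6 complex III genes, 5 of 9 complex IV genes, 1 of 11 ATP synthase genes and none of the 3 complex II genes rose, as the plot by complex shows. The medians were 0.38, 0.40, 0.25 and 0.28, beside 0.32 over the 26 complex I genes. Differences between complexes were not tested. ATPsynCF6, a small stalk subunit of ATP synthase, rose by 0.55 log2 (SE 0.08), and COX7B of complex IV by 0.64 (SE 0.10).

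**Figure D5:**
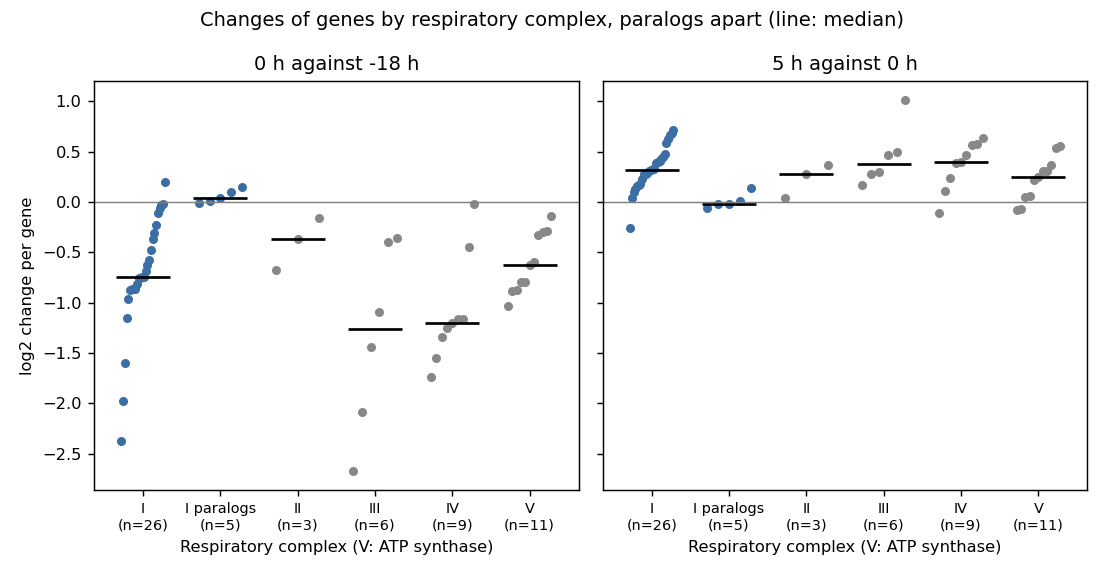
Points are the log2 changes of the genes of each respiratory complex without paralogs, and of the complex I paralogs in a column of their own, with complex V standing for ATP synthase, the numbers of genes under each column and a line at the median, for 0 h against -18 h on the left and 5 h against 0 h on the right. The medians on the left are -0.74, -0.37, -1.26, -1.20 and -0.63 for complexes I to V.

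Complex I assembly genes and other mitochondrial and NADH genes did not follow one course. None of the 3 measured assembly genes passed from -18 h to 0 h, and Nubpl, whose mammalian counterpart delivers iron-sulphur clusters to complex I, was higher at 5 h than in the larva (0.76, SE 0.21, limma adjusted p = 0.0127). Among genes of NADH supply and of other NADH routes 4 of 5 fell at 0 h. Those with the smallest adjusted p were Gpdh1 (-0.78, SE 0.14), Mdh1 (-0.63, SE 0.09) and Idh3g (-0.51, SE 0.10). Of 9 measured genes of mitochondrial import, mitochondrial DNA and chaperones, 1 rose, 2 fell and 6 did not pass in that step. The 1 that rose was TFAM, which packages mitochondrial DNA (0.37, SE 0.08, limma adjusted p = 0.00075). Among the 2 that fell was mtSSB, which binds mitochondrial DNA as single strands during replication (-0.85, SE 0.09, limma adjusted p = 1.3e-07). The transcription factor gene ewg, related to mammalian NRF-1, rose (0.40, SE 0.13, limma adjusted p = 0.0291). The other 2 of 3 measured regulators of nuclear-encoded mitochondrial genes did not pass from -18 h to 0 h. None of 6 mitochondrial dynamics and turnover genes passed in that step.

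Shorter and longer genes differed in these changes over the whole array. A span runs from the start to the end of the gene, introns included, and is not the length of the transcript. Among all genes that averaged 7 log2 or more, the 433 that span at most 2000 bases had a median change of -0.11 from -18 h to 0 h with 178 lower and 125 higher. The 642 that span more had a median of 0.32 with 125 lower and 325 higher. From 0 h to 5 h, 77 of the shorter genes rose and 11 fell with a median of 0.17, and 24 of the longer genes rose and 58 fell with a median of -0.07. The 26 complex I genes that are not paralogs were split at their own median span, so most of the longer ones still span under 2000 bases. Of the 13 with the shorter spans, 11 fell with a median of -0.82. Of the 13 with the longer spans, 9 fell with a median of -0.63. From 0 h to 5 h, 6 of the shorter and 2 of the longer rose, with medians of 0.38 and 0.28. Across the 26 genes, which share the same arrays, Spearman's rho between span and change was 0.32 from -18 h to 0 h and -0.35 from 0 h to 5 h, and that between mean level and change was -0.39 and 0.38. The control gene eIF4a had a difference between its 3-prime and middle probe sets of 3.03 ± 0.0845 in the 7 larval arrays. It was 2.81 ± 0.202 in the 7 prepupal arrays and 2.58 ± 0.0121 in the 3 arrays at 5 h (mean and SD). For the actin control gene the difference was 3.37 ± 0.330, 3.08 ± 0.366 and 2.76 ± 0.107 at the 3 times. The part of transcript length, or of end bias after amplification, in the complex I changes was not tested.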

How the data were processed

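Drosophila Genome Arrays (Affymetrix) were hybridised with amplified, biotin-labelled RNA. The deposited values are log2 signals per probe set. The submitters' processing notes name RMA and Affymetrix Expression Console as what the authors used. Versions, and whether all arrays were normalised together, are not stated there. Control probe sets (44 of 14010) were left out. Of the 13966 others, 12444 carried 1 gene symbol, 327 several and 1195 none. Symbols were updated by gene identifier through a RefSeq table, used for names and spans.

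limma 3.58.1 (R 4.3.3) fitted all 13966 probe sets over the 17 arrays with 3 groups and no covariate, two-sided, with Benjamini-Hochberg adjustment in each contrast at 0.05. The residual degrees of freedom were 14. The number of arrays limits the precision. Pairs of genes were compared by exact permutation of arrays. Every member may be named; array values are given for the 6 largest called changes per contrast, core subunits, paralogs and a few others. The members and lists were chosen with earlier results of these data known. Alternatives were the replicate block, each array left out, quantile normalisation, median centring, a filter at 5 log2, the median over probe sets of a gene, robust fitting, the spike-in sets, and larval arrays with muscle or glue signal left out, the last of them (both sets together) added after the data were seen. The fit was tested on simulated data.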

Additional observations from a re-analysis of the deposited data

Results flagged for a closer look

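ND-42 in larval array 5 read 8.61 log2, while the other 6 larval arrays lay between 8.93 and 9.04, so it stood far below the rest of its group. ND-B14.5AL in 0 h array 1 read 5.67 log2, while the other 6 arrays lay between 5.90 and 5.99. These were 2 of 62 groups of 7 arrays examined for an array standing apart, and chance marks about 1 in 20.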

How the results depend on the processing

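Over 29 alternatives, 28 of them with a value for the 5 h comparisons, 27 of the 42 calls on single genes passed in every one run, 18 of 20 at 0 h against -18 h, 2 of 8 at 5 h against 0 h and 7 of 14 at 5 h against -18 h. Of 51 results that did not pass, 43 never did, and no called change turned its direction. With single arrays left out, the counts ranged from 19 to 20 lower and 0 to 1 higher (ND-51, without larval array 4) at 0 h against -18 h, 2 to 9 higher at 5 h against 0 h, 9 to 14 lower at 5 h against -18 h, and 19 to 21 at any time. The medians ranged from -0.67 to -0.59, 0.25 to 0.34 and -0.22 to -0.15. The count of rises at 5 h against 0 h was 5 with robust fitting and 4 within the lower spike-in set, and with the replicate number as a block it was 2. Replicate numbers do not pair the arrays: correlations of same-numbered deviations between 0 h and -18 h ran from -0.28 to 0.37, and 1 of 7 arrays correlated best with its own number. With dim probe sets dropped the medians at 0 h and 5 h against -18 h were -0.74 and -0.39, since the dim genes leave the list. The median at 5 h against -18 h was -0.27 after quantile normalisation, -0.29 with the median over probe sets of a gene, -0.30 with a block for the spike-in set and -0.30 within the lower set, and without larval arrays with muscle or glue signal 8 genes were lower there. The cause was not tested. The higher spike-in set holds no 5 h array and gives values for 0 h against -18 h alone.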
